A study of Homo sapiens with 6 samples.

Results

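Insulin and IGF signaling was examined in NK-1R-overexpressing HK-2 cells through 10 genes picked by symbol, namely the IGF-binding proteins IGFBP2, IGFBP3, IGFBP4, IGFBP6 and IGFBP7, the receptors IGF1R, IGF2R and INSR, and the adaptors IRS1 and IRS2. Of these, 9 were analysed among the 16250 genes of the expression matrix, and IGFBP2 was not analysed here. HK-2 cells are human kidney cells of the proximal tubule, immortalized for culture. All 6 libraries came from HK-2 cells that stably carried NK-1R, the receptor of substance P (SP), on a lentiviral vector with a CMV promoter, kept by selection with puromycin. In 3 of them the cells received 20 µM SP, and in the other 3, the control, they received PBS, each for 48 h. Both groups therefore share the overexpressed receptor, and HK-2 cells without it were not analysed here. The comparison asked which transcripts differ when the peptide is added to cells that hold its receptor.

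Insulin and the insulin-like growth factors (IGFs) bind the receptor tyrosine kinases INSR and IGF1R on the cell surface. These phosphorylate the adaptors IRS1 and IRS2, which recruit phosphatidylinositol 3-kinase (PI3K) and so switch on the kinase AKT, the mTOR branch that controls growth, and the exclusion of FOXO transcription factors from the nucleus. IGF2R has no kinase and instead carries IGF2 and mannose 6-phosphate-tagged enzymes to lysosomes, while the secreted IGFBPs hold IGFs outside the cell until proteases such as PAPPA cut them. In the proximal tubule insulin is known for restraining glucose production and for promoting sodium reabsorption.

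Values are FPKM, that is, fragments per length of transcript and per mapped total, so levels can be compared between genes per length. The read depth is unknown, because FPKM does not give the number of reads, and the summed FPKM ran from 672807 to 760889 over the libraries. TACR1, which encodes NK-1R, was at 24.8 ± 8.66 FPKM in control and 114 ± 32.1 FPKM in SP-treated cells (SD, n = 3 each, limma adjusted p = 0.00207), so the groups also differed in receptor transcript. GAPDH, a common reference gene, had a log2 fold change of 0.09 and a limma adjusted p of 0.547. On the first principal component, which held 64.8% of the variance, the first SP library (12.7) lay nearer to the control libraries (-22.3 to -15.8) than the others (20.7 and 21.3). Of 15 proximal tubule markers, 6 had a mean of at least 1 FPKM, among them PAX8 and GGT1, and 9 were under 1 FPKM in every library, among them CUBN and HNF4A. Their summed FPKM was 351 to 417 in control and 301 to 339.8 in SP-treated cells. The 5 epithelial markers summed to 1034 to 1081 FPKM in control and 1058 to 1100 FPKM in SP-treated cells, with CDH1 under 1 FPKM in all 6. The 7 fibroblast markers summed to 23.5 to 29.9 FPKM in control and 15.7 to 18.1 FPKM in SP-treated cells, with 5 of them, including COL1A2 and COL3A1, under 1 FPKM in every library. The 3 endothelial markers were at 0.05 to 0.07 FPKM in control and 0.33 to 0.67 FPKM in SP-treated cells in sum. Of 4 leukocyte markers, PTPRC reached 0.01 FPKM at most, and the sum (113 to 117 FPKM in control, 108 to 115 FPKM in SP-treated cells) came mainly from CD68. The part of these differences in the results was not tested, and in bulk RNA fewer cells of a kind and less RNA per cell cannot be told apart. No source used here says whether the libraries of a group came from separate cultures, so the p-values cover only how these libraries vary, which may be technical.

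In control cells IGFBP7 was the most abundant of the 9 genes, at 262 to 382 FPKM. IGFBP3 (76.1 to 81.0 FPKM) and IGFBP6 (71.9 to 87.7 FPKM) came next and overlapped each other. IGF2R followed at 17.7 to 20.6 FPKM, clear of its neighbors on both sides. The adaptors IRS1 (4.45 to 7.16 FPKM) and IRS2 (5.12 to 5.51 FPKM) overlapped, as did IGF1R (2.36 to 4.51 FPKM) and INSR (2.66 to 2.87 FPKM). IRS1 and IGF1R also overlapped slightly. IGFBP4 had the lowest mean, at 1.80 to 2.59 FPKM, a range that overlapped that of IGF1R. In SP-treated cells the order of the means was the same except that IRS2 (mean 7.66 FPKM) stood above IRS1 (mean 6.79 FPKM), where the 2 again overlapped. IGFBP3 and IGFBP6 overlapped there as well. So did IGF1R (3.10 to 3.71 FPKM), INSR (3.02 to 3.35 FPKM) and IGFBP4 (1.81 to 3.15 FPKM), so the order of these low genes is not settled.

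**Figure D1:**
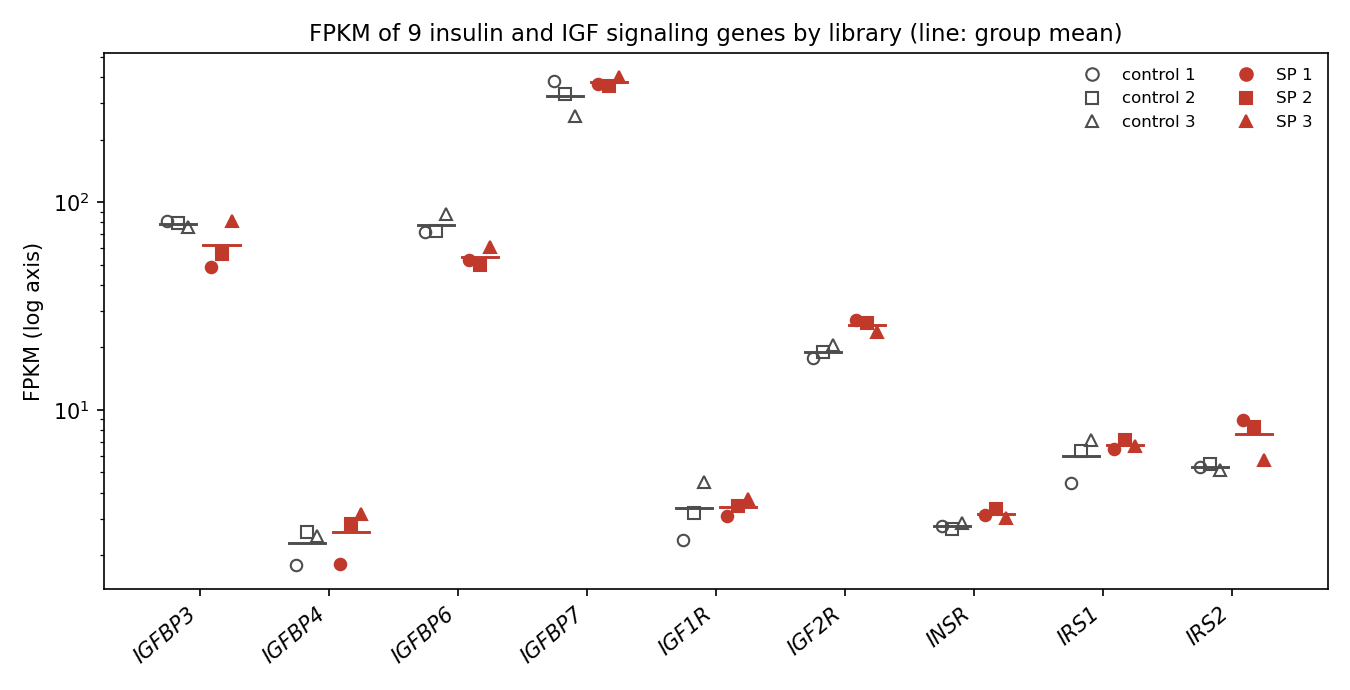
FPKM on a log axis for the 9 genes, by library, with control as open gray symbols and SP as filled red symbols, the group mean as a line and the symbol giving the replicate number. IGF2R and IRS2 lie higher in every SP library than in every control library and IGFBP6 lies lower, while the third SP library of IGFBP3 (81.6 FPKM) sits with the controls.

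SP-treated cells had more IGF2R and less IGFBP6 transcript than control cells, and the other 7 genes did not pass the test. IGF2R rose 1.34-fold by the ratio of mean FPKM, and IGFBP6 fell to 0.704 of its control level. The test was limma on log2(FPKM + 1) over 12127 genes, with a gene called at a Benjamini-Hochberg adjusted p under 0.05. Thus 1 of 9 genes was higher and 1 was lower, where 8.57% of all genes tested were called higher and 12.0% lower, or 20.6% in either direction. The share called among the 9 (22.2%) is near that background. Of all calls 41.6% were higher, and 58.2% and 58.4% were higher once FPKM was rescaled to equal totals or by median ratios. None of the 9 reached the 2-fold change that the study also required of its differentially expressed genes, which 1.59% of all genes did together with the adjusted p. Their log2 fold changes ran from -0.50 (IGFBP6) to 0.44 (IRS2) with a median of 0.15, against a median of -0.05 over all genes tested. In 4 of the 9, IGFBP6, IGF2R, INSR and IRS2, the groups did not overlap, as in 42.0% of all genes tested.

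The binding proteins did not move together. IGFBP6, which prefers IGF2 over IGF1 as its ligand, was at 71.9, 72.4 and 87.7 FPKM in the 3 control libraries and at 52.5, 49.9 and 60.8 FPKM in the 3 SP libraries. Every SP library was below every control library. The fold change on the log2 scale was -0.50, with a standard error of 0.10 and a limma adjusted p of 0.0125. Without the second SP library the adjusted p was 0.0581 from limma (0.00263 to 0.0581 over 13 alternatives). IGFBP6 spans 53097436 to 53102345 on the plus strand of chromosome 12 (GRCh38, GENCODE 29), and no other annotated gene overlaps it.

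IGFBP3, the main carrier of IGFs in serum, was at 81.0, 79.7 and 76.1 FPKM in control. In SP-treated cells it was at 48.6, 56.4 and 81.6 FPKM, so 2 libraries lay far below the controls and the third lay just above them. The fold change on the log2 scale was -0.37, with a standard error of 0.16 and a limma adjusted p of 0.131. Without the third SP library it was -0.58 (adjusted p = 0.0073 from limma), so 1 library decides whether IGFBP3 is called, and without the first SP library it was -0.22. The gene lies on the minus strand of chromosome 7 from 45912245 to 45921874.

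IGFBP7, which binds IGFs weakly and binds other proteins as well, was at 382, 330.4 and 262 FPKM in control and at 372, 363 and 399 FPKM in SP-treated cells. The control libraries spread wider than the SP libraries and 1 of them lay within their range. Its fold change on the log2 scale was 0.24, with a standard error of 0.13 and a limma adjusted p of 0.209. It was 0.09 without the third control library (limma adjusted p = 0.465) and 0.36 without the first (limma adjusted p = 0.0503). IGFBP7 has 4 exon overlaps with POLR2B, which is transcribed in the opposite direction, and without known strand handling the reads of the pair cannot be told apart there. IGFBP4, an inhibitor of IGF action that PAPPA cleaves, was at 1.80, 2.59 and 2.48 FPKM in control and at 1.81, 2.83 and 3.15 FPKM in SP-treated cells. These ranges overlap, and the fold change on the log2 scale was 0.12, with a standard error of 0.16 and a limma adjusted p of 0.631. With 1 library left out it ran from 0.0045 (without the third SP library) to 0.29 (without the first SP library). IGFBP7 lies on chromosome 4 from 57030773 to 57110385 (minus strand) and IGFBP4 on chromosome 17 from 40443461 to 40457731 (plus strand).

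Summed over IGFBP3, IGFBP4, IGFBP6 and IGFBP7, the FPKM was 537, 485 and 428 in the control libraries and 475, 472 and 545 in the SP libraries. The sums overlapped (exact permutation test, two-sided, p = 0.9, where 3 against 3 libraries cannot go below 0.1). The composition of this sum differed, described here without a test. IGFBP7 made up 71.2%, 68.1% and 61.1% of it in control and 78.4%, 76.9% and 73.3% in SP-treated cells. IGFBP6 made up 13.4%, 14.9% and 20.5% in control and 11.04%, 10.6% and 11.2% in SP-treated cells. IGFBP3 made up 15.1%, 16.4% and 17.8% in control and 10.2%, 11.9% and 14.97% in SP-treated cells. For each of these 3 genes the shares of the groups did not overlap, as did not the FPKM of 42.0% of all genes tested. For IGFBP3 this rests on a near tie, 15.09% in the first control library against 14.97% in the third SP library. The FPKM of IGFBP3 and IGFBP7 themselves overlapped between the groups. IGFBP4 was under 1% of the sum in every library. Shares of 1 sum depend on each other, and IGFBP2 is not part of it.

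**Figure D2:**
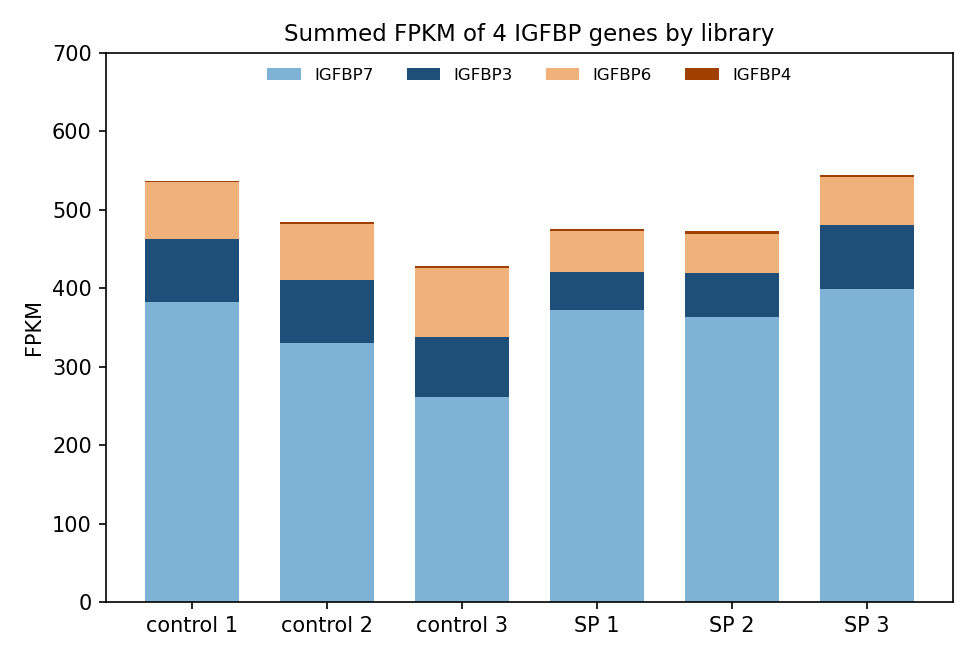
Stacked bars of FPKM from 0 for IGFBP7, IGFBP3, IGFBP6 and IGFBP4 in each of the 6 libraries. The total runs from 428 to 545 FPKM with no separation of the groups, and the IGFBP7 part is 61.1% to 71.2% of the bar in control and 73.3% to 78.4% in SP-treated cells.

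Of the receptors, IGF2R rose, while IGF1R and INSR did not pass the test. IGF2R, which clears IGF2 and sorts lysosomal enzymes, was at 17.7, 19.1 and 20.6 FPKM in control and at 27.1, 26.2 and 23.6 FPKM in SP-treated cells. All 3 SP libraries were above all 3 control libraries. The fold change on the log2 scale was 0.41, with a standard error of 0.08 and a limma adjusted p of 0.0120, and without the second SP library the adjusted p was 0.0583 from limma (0.0074 to 0.0583 over 13 alternatives). IGF2R has 48 exons in its principal transcript and covers plus-strand bases of chromosome 6 from 159969099 to 160113507. The antisense transcript AIRN overlaps the gene but none of its exons.

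INSR, the insulin receptor, was at 2.75, 2.66 and 2.87 FPKM in control and at 3.12, 3.35 and 3.02 FPKM in SP-treated cells. The groups did not overlap, but the difference was small, at a fold change of 0.15 on the log2 scale, with a standard error of 0.08 and a limma adjusted p of 0.234. IGF1R, the receptor of IGF1 and IGF2, was at 2.36, 3.20 and 4.51 FPKM in control and at 3.10, 3.44 and 3.71 FPKM in SP-treated cells. The SP libraries all lay inside the control range, and the fold change on the log2 scale was 0.05, with a standard error of 0.17 and a limma adjusted p of 0.862. Its sign turned to -0.13 without the first control library (adjusted p = 0.536 from limma) and to -0.00054 without the third SP library. The ratio of IGF2R to IGF1R in FPKM was 7.51, 5.95 and 4.56 in control and 8.75, 7.60 and 6.36 in SP-treated cells, which overlap. INSR lies on chromosome 19 from 7112255 to 7294034 (minus strand) and IGF1R on chromosome 15 from 98648539 to 98964530 (plus strand).

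Both adaptors had positive fold changes that did not pass the test. IRS2, the adaptor that carries much of insulin's metabolic signal in liver, was at 5.29, 5.51 and 5.12 FPKM in control and at 8.92, 8.32 and 5.74 FPKM in SP-treated cells. The first and second SP libraries stood well above the controls, and the third only slightly. The fold change on the log2 scale was 0.44, with a standard error of 0.14 and a limma adjusted p of 0.0574. With the replicate number as a block the adjusted p was 0.0358 from limma, with median-ratio scaling 0.0475, and without the third SP library 0.00822, where the log2 fold change was 0.61. IRS2 lies on the minus strand of chromosome 13 from 109752698 to 109786568, and 1 of its exons overlaps an antisense transcript. IRS1, the adaptor of muscle and of many growth factor responses, was at 4.45, 6.32 and 7.16 FPKM in control and at 6.48, 7.17 and 6.71 FPKM in SP-treated cells. The first control library was low and the rest were alike, and the fold change on the log2 scale was 0.18, with a standard error of 0.14 and a limma adjusted p of 0.395. Without the first control library it was 0.0098, and without the third control library 0.30. IRS1 lies on chromosome 2 from 226731317 to 226799759 (minus strand).

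Libraries with the same number deviated together only weakly over all genes tested (r = 0.17, 0.22 and 0.17), and no source says what the numbers mark. The difference was nevertheless also read within each same-numbered pair, as a description of uncertain pairs. IGFBP6 had nearly the same log2 difference in all 3 pairs (-0.45, -0.53 and -0.52). For IGF2R the log2 difference was 0.59, 0.44 and 0.19 in pairs 1, 2 and 3, and for IRS2 it was 0.66, 0.52 and 0.14. The third pair thus had the smallest difference in both. IGFBP3 differed by -0.73 and -0.49 in pairs 1 and 2 and by 0.10 in pair 3. IGF1R (0.29, 0.08 and -0.23) and IRS1 (0.46, 0.16 and -0.08) had differences of both signs, with the third pair lowest again. IGFBP7 ran the other way, with -0.04, 0.14 and 0.61. The library farthest from its group mean was not the same for all of them. For IGFBP3 and IRS2 it was the third SP library (0.42 and -0.34 on the log2 scale). For IGF1R and IGFBP7 it was the third control library (0.37 and -0.29), and for IRS1 the first control library (-0.34). Why the pairs differ was not tested.

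**Figure D3:**
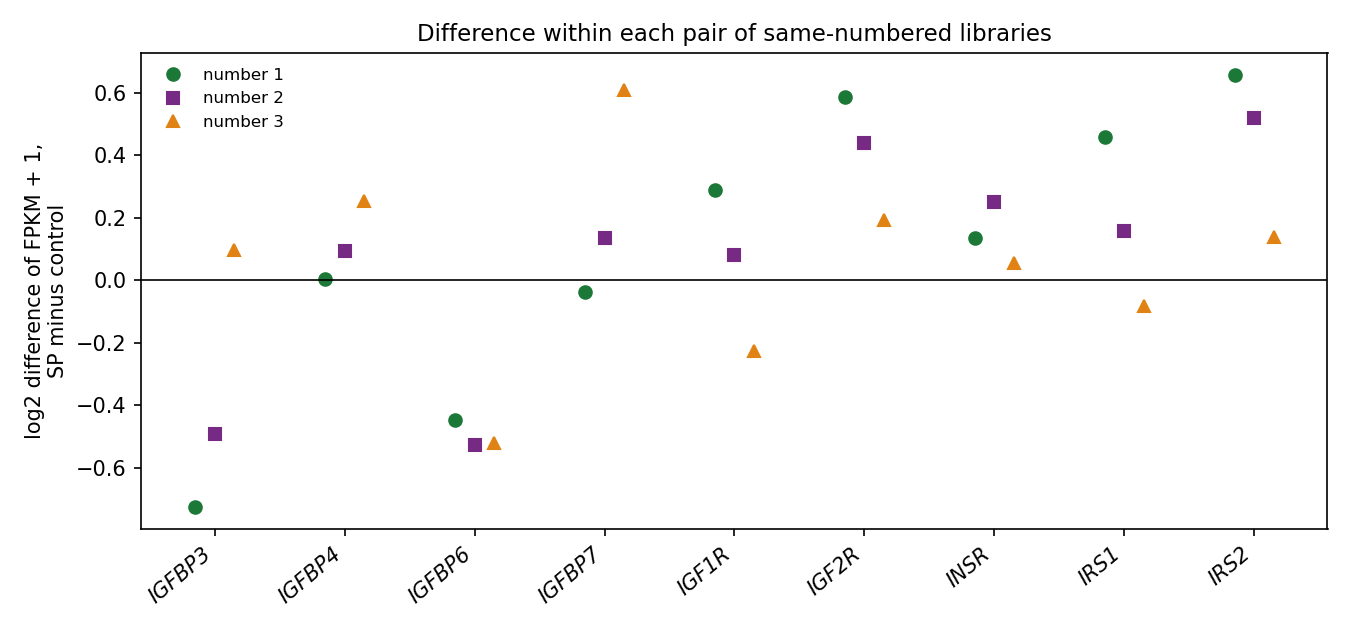
Log2 difference of FPKM + 1, SP minus control, within each pair of libraries that share a replicate number, for the 9 genes. The 3 points of IGFBP6 lie together between -0.53 and -0.45, and the third pair (orange triangles) is the lowest point for IGF2R, IRS2, INSR, IRS1 and IGF1R and the highest for IGFBP3, IGFBP4 and IGFBP7.

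The promoters of the 2 called genes and of IRS2, which is called under some alternatives, are shown so that their base composition and short motifs can be compared. They are 250 bases directly before the RefSeq start on GRCh38.p14, written in the direction of the gene. Of the 9 genes, 8 had an entry in the RefSeq promoter table. Capitals mark GC boxes (GGGCGG), the FOXO motif GTAAACA, the core of the cAMP response element (TGACG), the AP-1 motif TGANTCA, the TFAP4 motif CAGCTG and the TATA motif TATAAA, each searched on both strands, where neighboring GC boxes can overlap. The windows are chr6:159968832-159969081 on the plus strand for IGF2R, chr12:53097417-53097666 on the plus strand for IGFBP6 and chr13:109786584-109786833 on the minus strand for IRS2.
IGF2R: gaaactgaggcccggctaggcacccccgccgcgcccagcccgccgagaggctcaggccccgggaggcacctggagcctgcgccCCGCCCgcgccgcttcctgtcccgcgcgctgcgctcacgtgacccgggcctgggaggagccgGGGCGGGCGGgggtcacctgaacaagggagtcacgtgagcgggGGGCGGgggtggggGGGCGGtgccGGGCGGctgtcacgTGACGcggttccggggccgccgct
IGFBP6: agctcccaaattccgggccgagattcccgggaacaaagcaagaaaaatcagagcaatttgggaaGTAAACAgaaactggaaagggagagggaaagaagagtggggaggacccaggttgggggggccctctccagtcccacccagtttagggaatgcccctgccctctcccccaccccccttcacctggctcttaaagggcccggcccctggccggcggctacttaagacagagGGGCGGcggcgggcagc
IRS2: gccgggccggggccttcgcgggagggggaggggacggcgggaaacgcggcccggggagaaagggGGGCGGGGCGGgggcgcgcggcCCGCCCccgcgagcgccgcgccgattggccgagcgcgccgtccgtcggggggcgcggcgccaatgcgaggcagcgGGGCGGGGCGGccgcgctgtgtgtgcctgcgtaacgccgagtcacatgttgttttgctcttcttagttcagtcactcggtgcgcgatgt

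The IGFBP6 window held 61.2% G and C and 9 CpG, while those of IGF2R and IRS2 held 79.2% and 76.4% with 33 and 42 CpG. The median over 35116 promoter windows of the same length was 58.0% G and C. IGF2R had 6 GC boxes, IRS2 had 5 and IGFBP6 had 1, and 42.6% of all windows held at least 1. The FOXO motif was found in IGFBP6 alone among the 8 genes, 186 bases before the RefSeq start, and in 2.98% of all windows. GENCODE 29 places the start of IGFBP6 earlier, at 53097436. Most of its window (53097417 to 53097666), with the FOXO motif, thus lies inside the gene by that annotation. The TGACG core was found in IGF2R alone, 24 bases before the start, and in 21.2% of all windows. None of the 8 windows held the full cAMP response element TGACGTCA, the AP-1 motif or the TFAP4 motif, which were in 1.65%, 6.57% and 13.99% of all windows. A TATA motif was found in IGFBP4 alone, against 10.7% of all windows. These matches describe letters in a window and not binding.

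Other genes of the pathway were taken from a list of 85, of which 74 were expressed highly enough to be tested. Of these, 10 rose, 4 fell and 60 did not pass (18.9% called, against 20.6% of all genes tested), and their median log2 fold change was 0.05. PAPPA and DDIT4 also reached a 2-fold change.

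Of the ligands, IGF2 was at 19.8, 22.3 and 45.7 FPKM in control and at 18.3, 14.4 and 22.0 FPKM in SP-treated cells. The third control library stood apart from the rest, and the fold change on the log2 scale was -0.58, with a standard error of 0.28 and a limma adjusted p of 0.175. Without that library it was -0.22 (limma adjusted p = 0.355). IGF2 was lower in the SP library of each pair (-0.11, -0.60 and -1.02 on the log2 scale), and with the replicate block its adjusted p was 0.0401 from limma. IGF2 shares exons with the readthrough gene INS-IGF2, whose reads may be divided between them. IGF1 was listed at 0 in 5 libraries and at 0.08 FPKM in the second SP library, and INS was not analysed here. The binding proteins IGFBP1 (0.19 to 0.39 FPKM in control, 0.29 to 0.99 FPKM in SP-treated cells) and IGFBP5 (up to 0.06 FPKM) were below the filter, and IGFBPL1 did not pass (adjusted p = 0.833 from limma).

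PAPPA, the metalloprotease that cuts IGFBP4 and frees its IGF, had the largest change of the pathway genes. It was at 1.53, 1.53 and 2.71 FPKM in control and at 6.13, 8.50 and 11.2 FPKM in SP-treated cells. Each SP library was more than 2-fold above each control library. The log2 fold change was 1.71 on FPKM + 1, with a standard error of 0.21 and a limma adjusted p of 0.00195, and it was 2.12 on FPKM + 0.1. PAPPA covers plus-strand bases of chromosome 9 from 116153804 to 116402322 and has 1 exon overlap with the antisense transcript PAPPA-AS1. The substrate gene IGFBP4, by contrast, had overlapping groups, as given above. STC2, an inhibitor of PAPPA, was at 41.1 to 52.2 FPKM in control and 45.7 to 58.1 FPKM in SP-treated cells and did not pass (adjusted p = 0.322 from limma). HTRA1, a protease that can also cut IGFBPs, overlapped between the groups (25.9 to 45.0 FPKM in control, 18.4 to 39.0 FPKM in SP-treated cells), with a log2 fold change of -0.36 and a limma adjusted p of 0.401. With 1 library left out the log2 fold change ran from -0.70 (without the third SP library) to -0.11 (without the third control library). With the replicate block the adjusted p was 0.0184 from limma, and HTRA1 was lower in the SP library of each pair (-0.47, -0.42 and -0.20 on the log2 scale).

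FURIN, the convertase that cleaves the precursors of INSR and IGF1R, rose from 16.6 ± 1.67 to 25.8 ± 0.853 FPKM (SD, n = 3 each; log2 fold change 0.61, adjusted p = 0.00284 from limma). All 3 SP libraries (25.1, 25.5 and 26.7 FPKM) were above the controls (14.9, 16.7 and 18.2 FPKM). It was the only one of 4 genes of other receptors and receptor processing tested that was called, where 20.6% of all genes tested were called. Of 9 other adaptors, 1 fell, where 12.0% of all genes tested were lower. This was SH2B1, which enhances INSR signaling, from 8.65 ± 0.161 to 6.94 ± 0.01 FPKM (SD, n = 3 each, limma adjusted p = 0.0258). Of 8 inhibitors of the receptors and adaptors, 2 rose and none fell, where 8.57% of all genes tested were higher and 12.0% lower, and SOCS1 lost its call in 5 of 13 alternatives. TRIB3, a pseudokinase that binds AKT, rose from 18.9 ± 3.17 to 31.0 ± 4.84 FPKM (SD, n = 3 each, limma adjusted p = 0.0125). SOCS1, which targets IRS proteins for breakdown, rose from 2.67 ± 0.554 to 4.43 ± 0.783 FPKM (SD, n = 3 each, limma adjusted p = 0.0299). SOCS3, a relative of SOCS1, was at 15.2 ± 2.84 FPKM in control and 20.0 ± 3.13 FPKM in SP-treated cells (SD, n = 3 each) and did not pass (limma adjusted p = 0.0986), while its adjusted p was 0.0234 with the replicate block and 0.046 without the first SP library.

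Among the PI3K subunits and lipid phosphatases, 1 of 9 rose and 2 fell, where 8.57% of all genes tested were higher and 12.0% lower. PIK3CD, a catalytic subunit, was at 9.02, 9.59 and 11.5 FPKM in control and at 13.1, 14.8 and 16.9 FPKM in SP-treated cells (0.53 on the log2 scale, limma adjusted p = 0.0168). PIK3R1, the main regulatory subunit, moved the other way, from 6.05, 4.79 and 8.28 FPKM to 2.81, 3.33 and 3.83 FPKM (-0.75 on the log2 scale, limma adjusted p = 0.0184). The regulatory subunit PIK3R2 fell by 0.20 on the log2 scale (adjusted p = 0.0493 from limma), and with the replicate block its adjusted p was 0.0675. PIK3CD has exon overlaps with CLSTN1 on the other strand, and PIK3R2 shares its exons with a readthrough gene on the same strand.

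The kinases AKT1 and AKT2 did not pass (adjusted p = 0.378 and 0.324 from limma). In the mTOR branch 1 of 14 genes rose and none fell, where 8.57% of all genes tested were higher and 12.0% lower. DDIT4, an inhibitor of mTORC1 induced by stress, was at 69.1, 71.6 and 62.5 FPKM in control and at 120.0, 139 and 169 FPKM in SP-treated cells (1.05 on the log2 scale, limma adjusted p = 0.00132). DDIT4 overlaps an antisense transcript in 3 exon pairs, and exons of HTRA1, SH2B1 and BCL6 overlap antisense transcripts as well.

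None of 3 FOXO factors tested was called, with FOXO3 at 7.41 ± 0.129 FPKM in control and 7.44 ± 0.665 FPKM in SP-treated cells and FOXO4 at 2.38 ± 0.32 and 2.49 ± 0.0737 FPKM. Of 10 known FOXO targets, 3 rose and none fell, where 8.57% of all genes tested were higher and 12.0% lower. CITED2, a transcriptional coregulator, rose from 138 ± 17.4 to 260.5 ± 9.81 FPKM (SD, n = 3 each, limma adjusted p = 0.000756). BCL6, a transcriptional repressor, rose from 5.80 ± 0.446 to 10.6 ± 0.809 FPKM (SD, n = 3 each, limma adjusted p = 0.00134). PDK4, which restrains glucose oxidation, rose from 1.31 ± 0.437 to 2.39 ± 0.399 FPKM (SD, n = 3 each, limma adjusted p = 0.0315). These genes also answer to other factors. The other 7 did not pass. Among them CDKN1B, a cell cycle inhibitor, was at 27.6 ± 2.44 FPKM in control and 23.3 ± 1.91 FPKM in SP-treated cells (SD, n = 3 each), with a limma adjusted p of 0.0963, and of 0.043 with the replicate block. SESN1 and TXNIP were lower in every SP library than in every control library (log2 fold change -0.31 and -0.15, limma adjusted p = 0.0768 and 0.175). KLHL24 and PINK1 had positive log2 fold changes (0.13 and 0.01) with overlapping groups (limma adjusted p = 0.377 and 0.929). The targets that did not pass thus had log2 fold changes of both signs, none of them called. Of 3 IGF2 mRNA-binding proteins, IGF2BP2 fell from 39.7 ± 3.26 to 31.3 ± 3.14 FPKM (SD, n = 3 each, limma adjusted p = 0.0345) and the other 2 did not pass, where 12.0% of all genes tested were lower.

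PAPPA, FURIN, TRIB3, DDIT4, CITED2 and BCL6 were called in all 13 alternatives that kept the same threshold. SH2B1, SOCS1, PIK3CD, PIK3R1, PIK3R2, PDK4 and IGF2BP2 each lost their call without some single library. Without the second SP library the adjusted p from limma was 0.103 for SH2B1, 0.113 for SOCS1, 0.0626 for PIK3CD, 0.0636 for PIK3R1, 0.157 for PIK3R2, 0.0837 for PDK4 and 0.133 for IGF2BP2. Without the second control library it was 0.0777, 0.0513 and 0.0623 for SH2B1, SOCS1 and PIK3CD, and 0.145, 0.1002 and 0.0802 for PIK3R2, PDK4 and IGF2BP2. Without the third SP library it was 0.0675 for SH2B1, 0.0514 for PIK3CD, 0.128 for PIK3R2, 0.094 for PDK4 and 0.0984 for IGF2BP2. Without the first SP library it was 0.0609 for SH2B1, 0.0842 for SOCS1, 0.0537 for PIK3R1 and 0.069 for PIK3R2. Without the third control library it was 0.0553 for SOCS1, 0.0783 for PIK3R2, 0.0676 for PDK4 and 0.0743 for IGF2BP2, and without the first it was 0.0788 for PIK3R2. With no filter on low values the adjusted p was 0.0655 for SOCS1, 0.0611 for PDK4 and 0.0594 for IGF2BP2. With equal totals it was 0.129 for SH2B1, 0.270 for PIK3R2 and 0.138 for IGF2BP2, and with median-ratio scaling 0.124 for PIK3R2 and 0.0529 for IGF2BP2. For PIK3R2 it was 0.0899 with quantile normalization and 0.0682 without the trend.

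**Figure D4:**
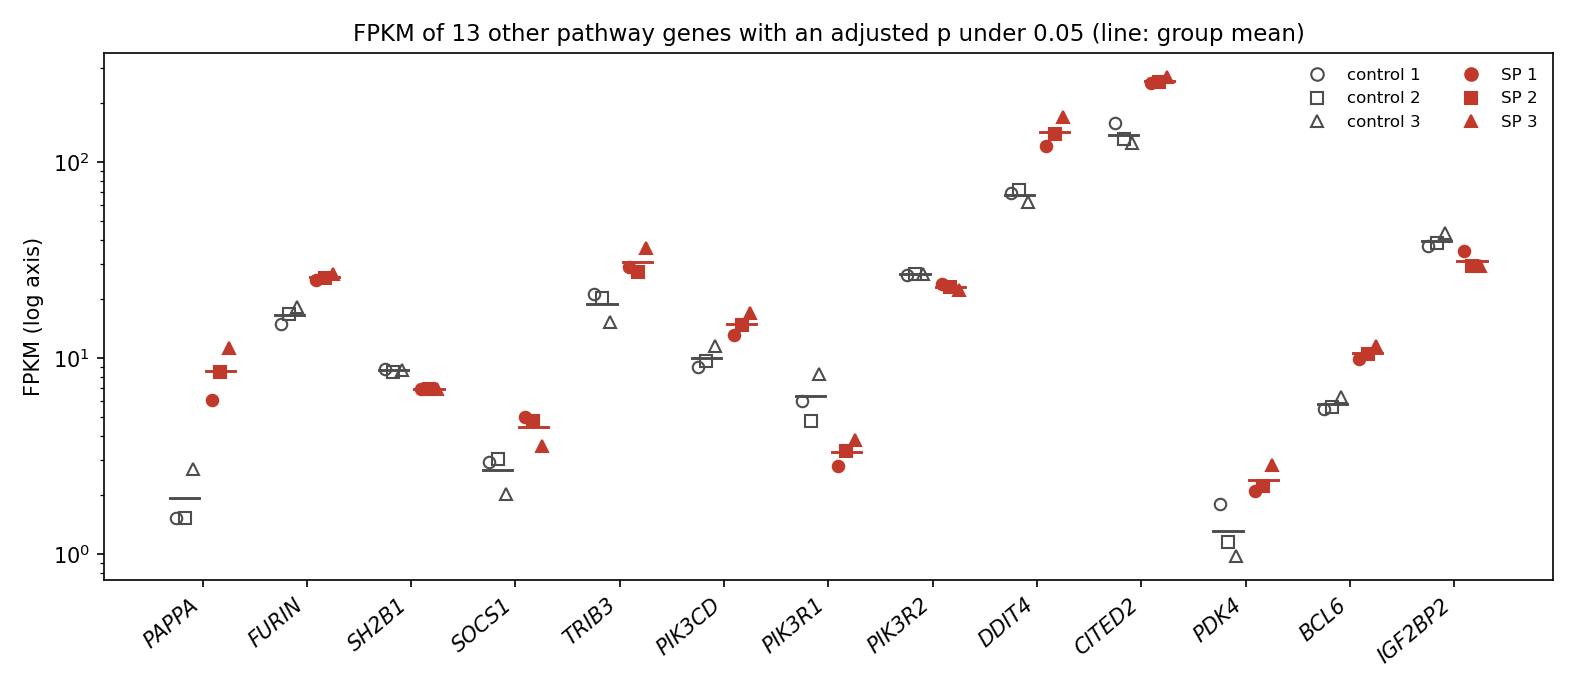
FPKM on a log axis for 13 other pathway genes that were called, in each control library (open gray symbols) and SP library (filled red symbols), with the group mean as a line. The groups do not overlap for any of the 13, which the selection by adjusted p on the same libraries makes likely (42.0% of all genes tested do not overlap). The widest gap is that of PAPPA, at 1.53 to 2.71 FPKM in control and 6.13 to 11.2 FPKM in SP-treated cells.

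**Figure D5:**
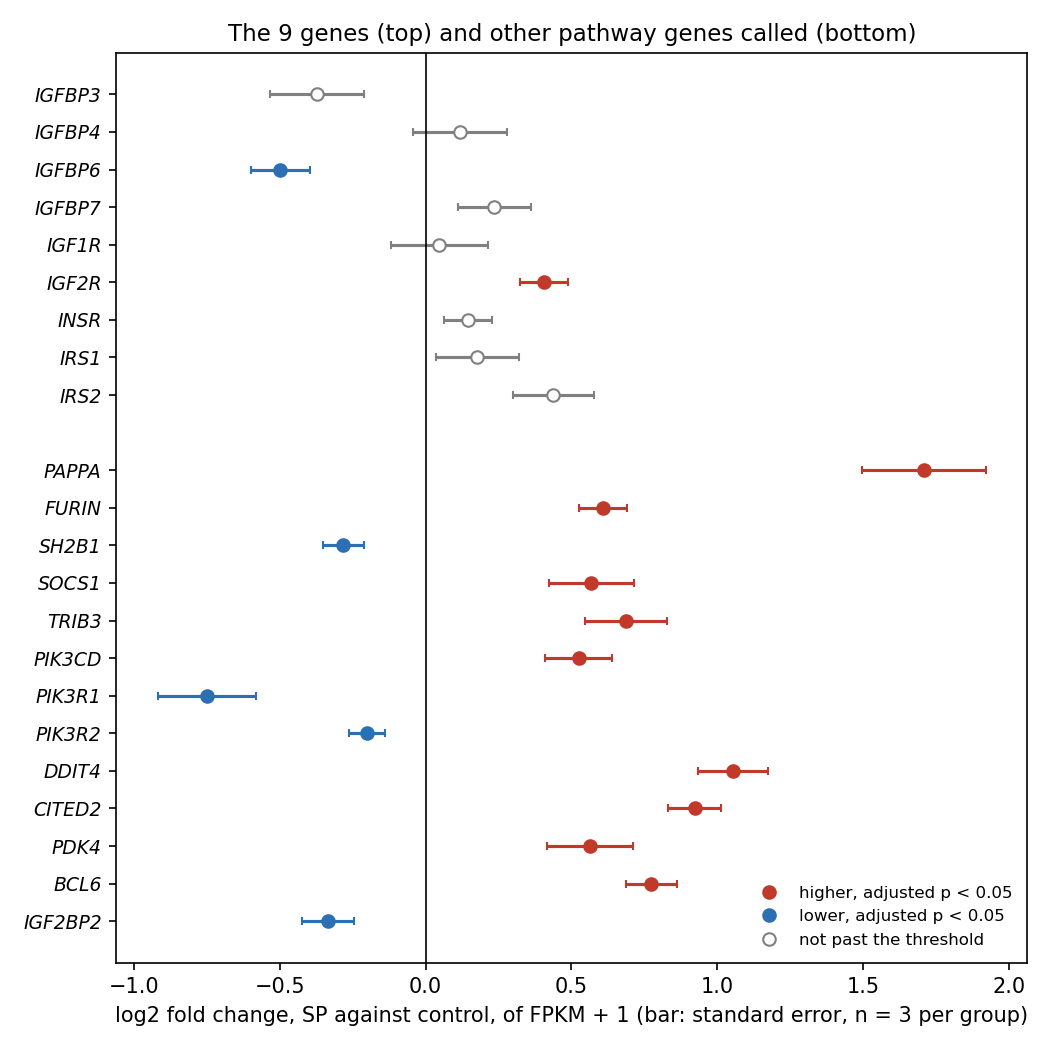
Log2 fold change of FPKM + 1, SP against control, with its standard error from limma as a bar, for the 9 genes (top) and 13 other pathway genes called (bottom), red for higher, blue for lower and open for not past an adjusted p of 0.05. The 9 genes lie between -0.50 and 0.44, and PAPPA (1.71) and DDIT4 (1.05) lie farthest from 0.

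For 1 gene of each role, the genes with the most similar pattern over the 6 libraries were found by Pearson's r of log2(FPKM + 1) among 11418 others with a mean of at least 1 FPKM. RING1 and METRN were among the genes most like IGFBP3 (r = 0.99 and 0.988), and neither was called. EFHD2, SEMA4B and AP2A2 were most like IGF1R (r = 0.994, 0.991 and 0.989), and none of them was called either. ABHD17C, TM9SF3 and DNAJC25-GNG10 were most like IRS2 (r = 0.992 for each), with log2 fold changes of 0.71, 0.12 and 0.56. ABHD17C and DNAJC25-GNG10 were called higher (limma adjusted p = 0.0424 and 0.0467), and TM9SF3 was not called. DNAJC25-GNG10 was low, at means of 0.657 FPKM in control and 1.48 FPKM in SP-treated cells. The 6 points fall in 2 groups and share their libraries, and between 31 and 43 genes had an r of at least 0.95 with each of the 3.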

How the data were processed

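RNA from 6 libraries of NK-1R-overexpressing HK-2 cells, 3 per group, was sequenced by the authors as paired-end DNBSEQ reads, which they cleaned, aligned to GRCh38.p13 with HISAT and quantified with RSEM. The submitters' processing notes also name HISAT2, Bowtie2 and hg38. The authors deposited FPKM values with 2 decimals, which are scaled to transcript length and library total, so abundant genes that change can shift the others. How the listed genes were selected, and whether strand was used, are not given in the sources used here. The design foresaw FPKM, so no count model was used. Depth is unknown, and the ratios of 534 low values between libraries (0.926 to 1.37) did not settle it.

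Genes with at least 0.5 FPKM in at least 3 libraries entered limma 3.58.1 (R 4.3.3) on the scale of log2(FPKM + 1), with a variance trend and Benjamini-Hochberg adjustment, and the script was tested on simulated data. Fold changes on this scale understate those of low genes. Deviations from the group means correlated only weakly between same-numbered libraries (0.17, 0.22 and 0.17), and no source says what the numbers mark. Whether they mark pairs is therefore not established. A fit with the number as a block was run only as an alternative, and its p-values hold only if the pairs are real. Alternatives were another pseudocount, no filter, 3 scalings, no trend, the block, a 2-fold threshold and each library left out.

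The members and gene lists were chosen with earlier results of these data known, and so were the promoter motifs, the shares and the ratios. All members were named, with up to 4 called genes in each group of pathway genes, or the most abundant 2 where none was called, and the 3 genes most like IGFBP3, IGF1R and IRS2. STC2, HTRA1, SOCS3, AKT1, AKT2, CDKN1B, SESN1, TXNIP, KLHL24 and PINK1 were named after their values were seen. Some genes that these rules name are not reported here. Positions are from GENCODE 29 and promoters from RefSeq. Values with ± are SDs.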

Additional observations from a re-analysis of the deposited data

How the results depend on the processing

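With the replicate block, as with median-ratio scaling, 2 of the 9 genes were called higher (IGF2R and IRS2) in place of 1. With a 2-fold threshold added, 0 were higher and 0 lower, and of the other pathway genes 2 were higher and 0 lower. Leaving out each library in turn gave 0 to 2 of the 9 genes higher, 0 to 2 lower, 6 to 10 other pathway genes higher (10 with all libraries) and 0 to 3 lower (4 with all libraries). Over all genes, 1039 calls were higher and 1457 lower, against 506 and 432 without the second SP library, 582 and 603 without the second control library and 690 and 822 without the third SP library, fits that hold fewer samples. Lower calls over all genes numbered 750 with equal totals and 912 with median-ratio scaling. Other pathway genes lower numbered 1 with equal totals and 2 with median-ratio scaling. The log2 fold change of IGF1R ran from -0.13 to 0.23 with a library left out. The other alternatives, which were another pseudocount, no filter, quantile normalization and no trend, gave the same counts for the 9 genes. The log2 fold change ran from -0.057 to 0.16 for IGFBPL1, from -0.054 to 0.060 for FOXO3 and from -0.023 to 0.11 for FOXO4 with a library left out, and was -0.013 for FOXO3 with quantile normalization. Beside IRS2 (gained), PIK3R2 (lost) and IGF2, HTRA1, SOCS3 and CDKN1B (gained), the block changed no call of a named pathway gene. The causes of these shifts were not tested. Values without read counts limit what can be said of genes of low FPKM, such as IGFBP4, INSR and IGF1R, whose counting error is unknown.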
